A study of Homo sapiens with 24 samples.

Results

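Aminoacyl-tRNA synthetases attach each amino acid to its tRNA, and the 35 human genes described here encode 19 enzymes of the cytosol, 14 enzymes of the mitochondrion and the scaffold proteins AIMP1 and AIMP2. They were taken by name from the 19834 protein-coding genes with a reference transcript. A row of the splicing files was assigned to a gene when it lay on the gene's strand and within its GRCh37 span, which gave 7533 of 1830076 rows, of which 2404 cross an exon-intron boundary and 5129 join spliced ends. HCT116 is a human colorectal carcinoma line, and here it expressed wild-type (WT) or Y36C PHF5A from a lentiviral cDNA in a selected pool of cells, over the endogenous gene. Each line was treated for 6 h with DMSO, the solvent, or with E7107, which gave 4 groups of 6 poly(A) RNA samples (24 in all). The labels give no dose of E7107.

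E7107 is a pladienolide derivative that acts on SF3b, the part of the U2 small nuclear ribonucleoprotein that recognises the branch point of an intron, and PHF5A is a small subunit of SF3b. When SF3b fails at an intron, the intron may stay in the RNA or the exon behind it may be skipped. The cytosol and the mitochondrion translate separately, so most amino acids have a pair of synthetases, both encoded in the nucleus, and only a few genes such as GARS1 and KARS1 serve both compartments. Several cytosolic enzymes are held in the multisynthetase complex by AIMP1 and AIMP2.

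The measurement is percent spliced in (PSI), the percentage of reads at a splice site that follow a given junction. For an exon-intron boundary it is the share of unspliced reads, called retention here. Reads behind a PSI were not given, so the depth of a single value is unknown. Splice sites with at least 1 read numbered 281734 to 284117 in the WT E7107 samples and 329014 to 340662 in the other 18. The 35 genes have 570 introns in their reference transcripts, of which 566 had reads at both boundaries in all 24 samples. No pair of samples held identical values. Of the epithelial markers, EPCAM, CDH1, KRT8 and KRT18 had 15 to 30 sites with reads in every sample and VIL1 had 0. PTPRC and COL1A2, markers of leukocytes and fibroblasts, had no rows, DES had 2 such sites and COL1A1 had 85, and their part in the results was not tested. The mutant share of PHF5A cannot be read from junction percentages of a cDNA. Per the study's methods the 6 samples of a group were treated as replicates of 1 cell pool. Whether they came from separate passages or days is not given in the sources used here, so the p-values measure only the spread between these samples.

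Under DMSO the introns of these genes were nearly all spliced, and the mitochondrial enzymes carried more unspliced boundaries than the cytosolic ones. Gene retention is the mean retention over both boundaries of all introns of a gene. Its median over the 19 cytosolic enzymes was 1.15% ± 0.04 (SD, n = 6) in WT and 1.03% ± 0.10 (SD, n = 6) in Y36C cells. Over the 14 mitochondrial enzymes it was 3.63% ± 0.23 (SD, n = 6) and 3.72% ± 0.20 (SD, n = 6). WARS2, TARS2, AARS2 and SARS2, which charge tryptophan, threonine, alanine and serine tRNAs in the mitochondrion, stood highest, at 11.43%, 9.33%, 6.30% and 6.01% in WT DMSO samples. EPRS1, which joins glutamyl and prolyl activities in 1 protein, stood lowest at 0.30% ± 0.04 (SD, n = 6). Among the 12 pairs with a cytosolic and a mitochondrial enzyme, the mitochondrial gene had the higher level in 8 pairs in each line.

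Between the lines under DMSO no gene passed the test. Gene retention was compared by limma on the mean natural-log odds of PSI, with p-values adjusted over 8551 genes and calls made at 0.05 or less. Of the 35 genes 0 were called by limma, where 0.257% of all genes were called higher and 0.374% lower in Y36C. An unadjusted limma p under 0.05 was reached by 5 of the 35, beside 1399 of the 8551 genes. Of 504 member boundaries limma called 0, beside 0.0877% higher and 0.0778% lower over the whole table. Skipping of reference exons was called at 0 of 50 junctions, beside 0.244% higher and 0.0508% lower. An unadjusted limma p under 0.05 was reached by 55 of these boundaries and 8 of these junctions. The like counts over the whole table were not made. Junctions of the reference introns gave 1 higher and 0 lower of 568, beside 0.056% and 0.0604%, and junctions across any annotated exon 1 and 0 of 159, beside 0.107% and 0.0681%. The reference junction of NARS2 from 78154805 to 78176921 on chromosome 11 was the single call, higher in Y36C by 3.15 percentage points at 1 of its ends (adjusted p = 0.049).

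In WT cells E7107 raised retention in most of the family. By limma, 29 of the 35 genes were called higher than in DMSO and 3 lower, beside 70.1% higher and 10.4% lower over all genes. The median change was 0.58 in log odds for the 35 genes and 0.88 for all genes. Of the cytosolic enzymes 17 of 19 rose and CARS1 fell, with a median of 0.58, and of the mitochondrial enzymes 10 of 14 rose and CARS2 and SARS2 fell, with a median of 0.36. With 5′ boundaries alone the order of these medians turned, to 0.61 and 0.69. Both scaffolds rose, AIMP1 from 1.24% to 4.54% and AIMP2 from 3.5% to 9.55%. FARSB (log odds change -0.03, adjusted p = 0.549), RARS2 (0.03, adjusted p = 0.658) and WARS2 (0.21, adjusted p = 0.322) were not called by limma. The 6 E7107 samples lay apart from the 6 DMSO samples in 25 of the 35 genes, beside 70.2% of all genes.

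**Figure D1:**
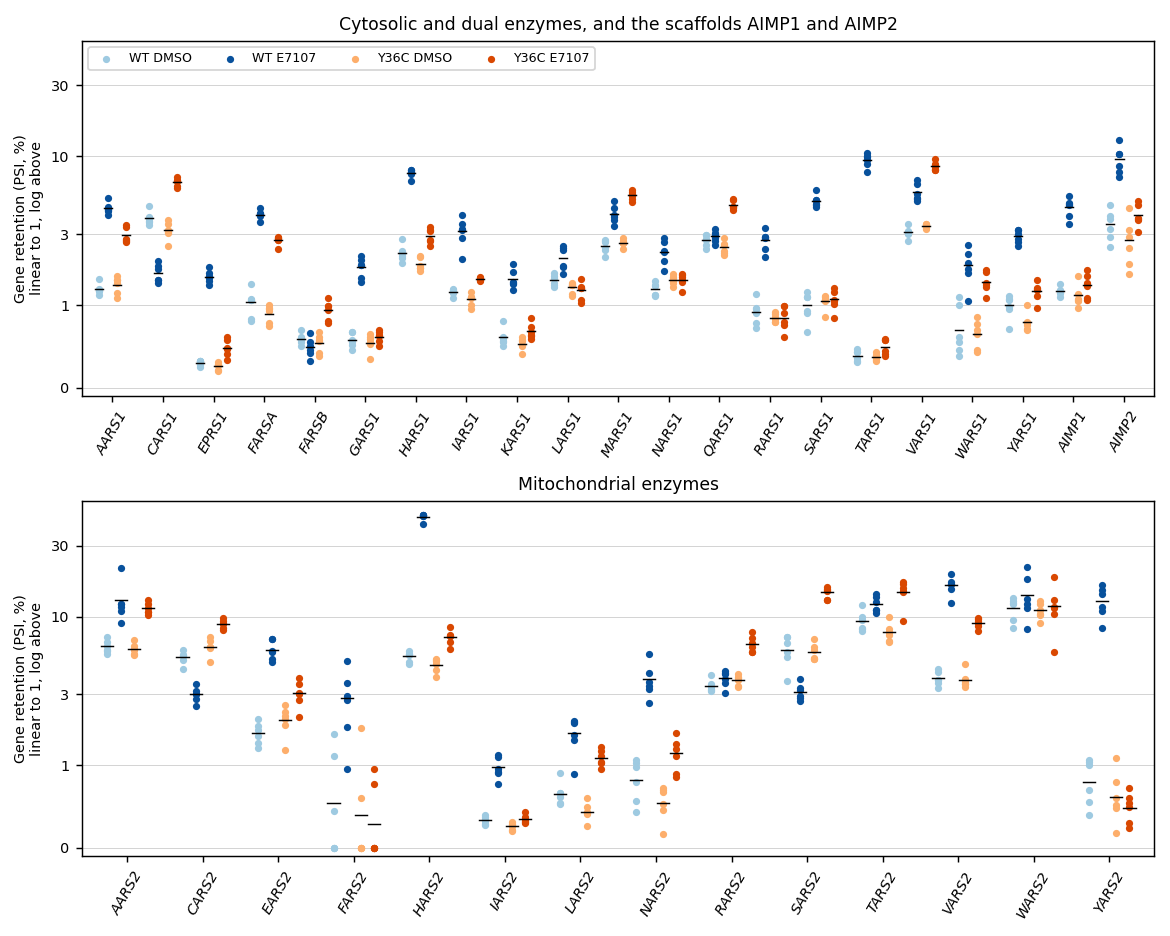
Gene retention (PSI in %, linear up to 1 and logarithmic above) of each of the 35 genes in each of the 24 samples, coloured by group, with a bar at each group mean. HARS2 in WT E7107 stands above every other gene at a mean of 46.94%, and CARS1, CARS2 and SARS2 are the genes called lower in WT and higher in Y36C cells, with 1 WT DMSO point of SARS2 among its WT E7107 points.

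The same held for single boundaries. Of 792 member boundaries tested in WT cells, 495 rose (62.5%) and 56 fell (7.07%), where 70.8% of all boundaries rose and 5.78% fell. A boundary at 0 in some DMSO sample was tested only if all 6 E7107 samples were above 0, which favours calls of rises. Between the lines under DMSO, 504 member boundaries passed this filter. The same limit applies to the background, to Y36C cells and to skipping junctions. Both boundaries rose at 188 of the 566 introns (33.2%, background 31.0%) in 23 of the 35 genes, and both fell at 13 introns (2.3%, background 1.5%). The spliced junctions of the reference introns fell at 309 and rose at 46 of 569, beside 50.9% and 6.74% of all. The rises in retention were small: the median change over member introns was 1.55 percentage points, beside 4.76 over all 91003 introns. The share with both boundaries higher was 42.8% among cytosolic and 15.8% among mitochondrial introns. Of the 32 mitochondrial introns concerned, 15 lay in VARS2, 12 in HARS2 and 3 in YARS2. These shares are over the 355 and 202 introns measured, and a boundary that was not tested counts as not higher. Among tested boundaries, 390 of 589 cytosolic (66.2%) and 93 of 188 mitochondrial ones (49.5%) rose, a smaller gap. The median change was 1.44 points over cytosolic and 2.09 points over mitochondrial introns, the reverse order.

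HARS2, the mitochondrial histidyl-tRNA synthetase, had the largest change of the family in WT cells. It lies at chr5:140071015-140078890 on the plus strand, head to head with HARS1, and none of its 12 introns touches another protein-coding gene. In the 6 WT DMSO samples its gene retention ran from 4.83% to 5.87% with a median of 5.54%, and in the 6 WT E7107 samples from 41.77% to 48.46% with a median of 47.82%. Every E7107 sample was above every DMSO sample by more than 35 points. The log odds change was 2.95 ± 0.064 (SE, limma adjusted p = 7.8e-14). In Y36C cells the DMSO samples ran from 3.91% to 5.19% and the E7107 samples from 6.10% to 8.51%, a change of 0.24 ± 0.068 (SE, limma adjusted p = 0.0096).

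Retention rose at all 12 HARS2 introns in WT cells, and the 8 introns of the family with the largest rises were all in this gene. Intron 8 (chr5:140076200-140076527) went from 3.59% ± 0.79 to 57.45% ± 7.53 (SD, n = 6), with 48.19% to 68.49% across the E7107 samples and 2.29% to 4.50% across the DMSO samples. Introns 2, 3 and 1 rose by 52.01, 50.17 and 50.02 points, and introns 9, 4, 7 and 5 by 44.51, 44.15, 43.36 and 38.60 points. The smallest rise, 21.61 points, was at intron 11. In Y36C cells none of the 12 had both boundaries called, and intron 8 stood at 5.15% ± 0.85 (SD, n = 6) with E7107. At both boundaries of intron 8 the effects of E7107 differed between the lines (limma interaction in log odds, 3′ boundary -2.53 ± 0.327, adjusted p = 8.24e-07).

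The ends of these introns are shown because the branch point lies in them, beside those of 3 introns whose retention fell in WT cells. Each line gives the last 50 bases of the intron on its own strand from GRCh37, with the final AG and any match to CTNAC, a loose branch point motif, in capitals.
HARS2 intron 8: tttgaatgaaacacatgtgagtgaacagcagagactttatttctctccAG
HARS2 intron 2: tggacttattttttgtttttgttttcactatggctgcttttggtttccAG
HARS2 intron 1: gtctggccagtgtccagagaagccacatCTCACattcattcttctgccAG
SARS2 intron 3: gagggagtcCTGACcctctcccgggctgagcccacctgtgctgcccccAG
CARS1 intron 21: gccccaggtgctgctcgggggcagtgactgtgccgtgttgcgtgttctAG
CARS1 intron 2: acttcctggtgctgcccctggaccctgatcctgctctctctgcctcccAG
They end at chr5:140076527, chr5:140073519, chr5:140073175, chr19:39412308, chr11:3023284 and chr11:3063487, the last 3 on the minus strand. CTNAC was found between 50 and 15 bases from the 3′ end in 119 of the 566 member introns, beside 20.4% of all introns.

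HARS2 intron 3 (chr5:140073640-140073769) is short enough to show whole, with its GT and AG in capitals.
HARS2 intron 3: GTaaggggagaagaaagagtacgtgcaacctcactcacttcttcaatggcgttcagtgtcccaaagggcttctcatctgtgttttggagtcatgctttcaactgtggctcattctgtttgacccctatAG
Its 130 bases hold no stop codon in the frame of the upstream exon and their number is not a multiple of 3, so its retention shifts the frame. Of the 12 HARS2 introns, 10 have a stop codon in frame. Over the 559 coding introns of the family 535 do (95.7%), beside 95.1% of all coding introns.

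**Figure D2:**
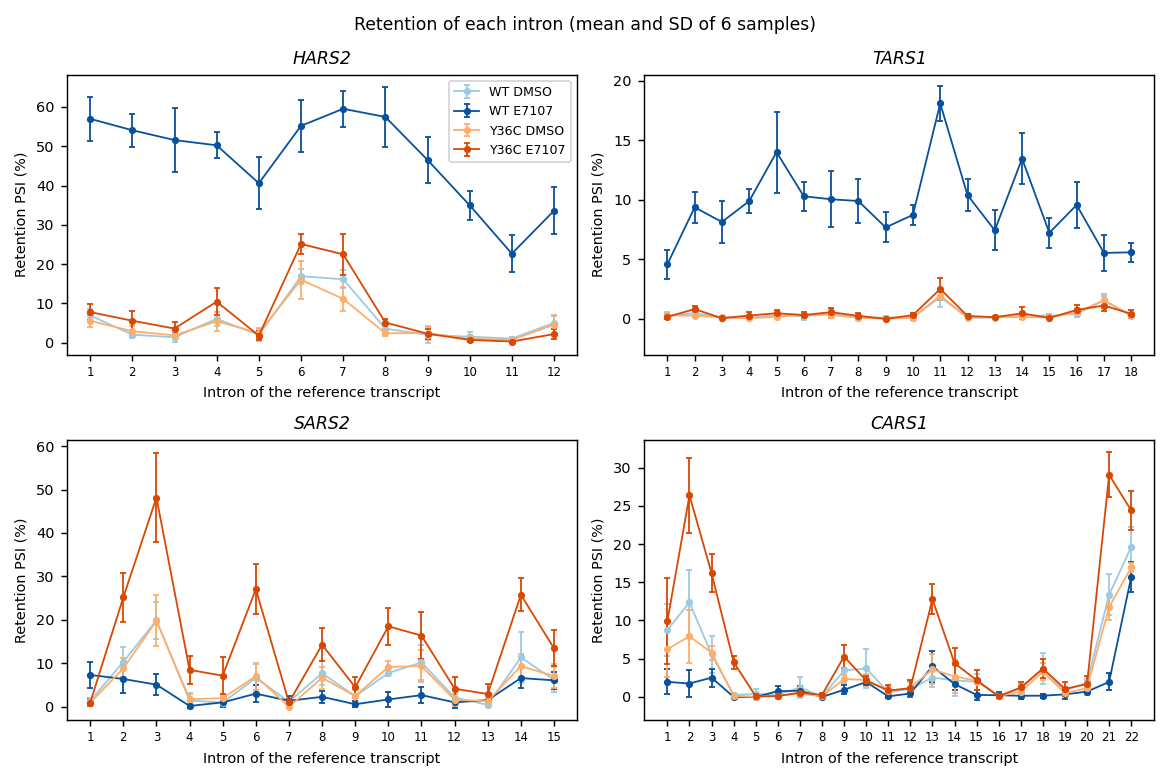
Retention PSI (%) of each intron along the reference transcripts of HARS2, TARS1, SARS2 and CARS1, as means of 6 samples per group with SD bars. In HARS2 and TARS1 the WT E7107 line lies above the others at every intron, and in SARS2 and CARS1 the Y36C E7107 line is highest at every intron with a WT DMSO mean of 5% or more.

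TARS1, the cytosolic threonyl-tRNA synthetase, started from almost complete splicing. Its gene retention was 0.31% to 0.47% in WT DMSO (median 0.39%) and 7.86% to 10.49% in WT E7107 samples (median 9.67%), with no overlap. The change was 2.11 ± 0.054 in log odds (SE, limma adjusted p = 3.8e-13). Both boundaries rose at all 18 introns, which reached 4.59% to 18.10% as group means. In Y36C cells the gene stood at 0.37% ± 0.04 under DMSO and 0.50% ± 0.10 under E7107 (SD, n = 6), and the change of 0.07 was not called (adjusted p = 0.0831).

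YARS2, VARS2 and HARS1 complete the 5 genes with the largest rises. YARS2, the mitochondrial tyrosyl-tRNA synthetase, went from 0.40% to 1.09% (median 0.85%) to 8.34% to 16.35% (median 12.89%), a change of 2.13 ± 0.134 (SE, limma adjusted p = 4.27e-09). In Y36C cells it stood at 0.62% ± 0.32 and 0.49% ± 0.18 (SD, n = 6), with overlapping groups. VARS2, the mitochondrial valyl-tRNA synthetase, rose from 3.31% to 4.44% (median 3.74%) to 12.27% to 19.28% (median 16.62%), and both boundaries rose at 15 of its introns. HARS1, the cytosolic neighbour of HARS2, rose from 2.25% ± 0.29 to 7.73% ± 0.49 (SD, n = 6), with 11 of 12 introns higher at both boundaries. The groups of all 3 genes lay apart in WT cells.

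CARS1, SARS2 and CARS2, 2 cysteinyl and 1 seryl enzyme, went the other way and lost retention in WT cells. SARS2 stood at 3.68% to 7.32% in WT DMSO (median 6.20%) and 2.71% to 3.79% in WT E7107 samples (median 3.08%). The groups overlapped at 1 low DMSO sample, and the change was -0.56 ± 0.092 (SE, limma adjusted p = 8.18e-05). CARS1 went from 3.48% to 4.63% (median 3.77%) to 1.40% to 1.98% (median 1.62%), with no overlap and a change of -0.51 ± 0.052 (SE, limma adjusted p = 8.16e-07). CARS2 went from 4.46% to 5.97% (median 5.45%) to 2.51% to 3.53% (median 3.02%), also without overlap, a change of -0.40 ± 0.052 (SE, limma adjusted p = 8.06e-06).

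The 13 introns that fell at both boundaries had means of 2.45% to 19.88% in WT DMSO samples. SARS2 intron 3 (chr19:39412308-39412877) had 14.29% to 26.49% in WT DMSO (median 18.95%) and 2.08% to 7.84% in WT E7107 samples (median 5.71%). CARS1 intron 21 (chr11:3023284-3023770) went from 13.37% ± 2.68 to 1.97% ± 1.1, and CARS1 intron 2 (chr11:3063487-3068982) from 12.38% ± 4.28 to 1.75% ± 1.82 (SD, n = 6). In all 3 introns the WT groups lay apart and both boundaries fell by limma. SARS2 intron 11 and CARS2 intron 10 followed, lower by 7.52 and 7.48 points. Among single boundaries of reference introns the 5 largest falls were at SARS2 intron 3, CARS1 introns 2, 1 and 21 and WARS2 intron 5, the last from 21.25% to 6.98% at its 3′ boundary (limma adjusted p = 0.0191). CARS1 introns 1 and 2 flank exon 2, which most CARS1 RNA lacked in Y36C DMSO samples, as given below. Their boundaries at exon 2 count only reads at that exon, in unknown number. This limit applies wherever these introns are named. Of the 13 introns, 12 had a higher mean in Y36C cells with E7107 than with DMSO and 5 of them rose there at both boundaries. A higher mean was the usual direction in Y36C cells, with a median change of 0.34 points over member introns and 0.46 over all introns. The same counts over all introns that fell in WT cells were not made.

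In Y36C cells E7107 raised retention in 23 of the 35 genes and lowered it in 0, beside 50.9% and 0.608% of all genes, with a median change of 0.23 for the family and 0.19 for all genes. In the 12 genes not called, changes ran from -0.04 to 0.13, and 1 of them had an unadjusted p under 0.05. Of the cytosolic enzymes 12 of 19 rose (median 0.16), of the mitochondrial enzymes 10 of 14 (median 0.25), and AIMP2 rose. The 6 E7107 samples lay apart from the 6 DMSO samples in 19 genes, beside 37.6% of all genes. Among 540 member boundaries 173 rose (32.0%, background 26.8%) and 9 fell (1.67%, background 1.26%). Of the 9, 4 were at reference introns, none of them by 5 points or more. Both boundaries rose at 52 introns (9.19%, background 6.56%) and fell at 0. Junctions of the reference introns fell at 184 and rose at 3 of 568, beside 26.1% and 1.34%.

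SARS2 had the largest rise in Y36C cells, followed by VARS1, AARS2, VARS2 and TARS2. SARS2 went from 5.17% to 7.05% (median 5.63%) to 12.87% to 15.81% (median 15.07%), with no overlap and a change of 0.80 ± 0.069 (SE, limma adjusted p = 1.67e-06). VARS1, the cytosolic valyl-tRNA synthetase, rose from 3.39% ± 0.11 to 8.60% ± 0.57 (SD, n = 6), and 14 of its 29 introns rose at both boundaries, the most of any member. AARS2 rose from 6.07% ± 0.55 to 11.38% ± 0.99 and VARS2 from 3.77% ± 0.51 to 9.07% ± 0.67 (SD, n = 6). Of the 21 introns of AARS2, 17 touch a protein-coding gene on the other strand, and the files do not say whether reads were assigned by strand. TARS2 rose from 7.85% to 14.73% (limma adjusted p = 0.0264) with overlapping groups. The smallest changes were in FARS2 (-0.04), YARS2 (-0.03), LARS1 (-0.01), RARS1 (0.00) and SARS1 (0.01), where limma gave adjusted p-values from 0.742 to 0.967.

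The largest rise of a single intron in Y36C cells was at VARS2 intron 24 (chr6:30891009-30891129), shown whole with GT and AG in capitals beside VARS1 intron 15 (chr6:31750411-31750497, minus strand), because both are short and rich in G and C.
VARS2 intron 24: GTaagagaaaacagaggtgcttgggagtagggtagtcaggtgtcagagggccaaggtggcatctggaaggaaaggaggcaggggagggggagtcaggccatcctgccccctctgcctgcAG
VARS1 intron 15: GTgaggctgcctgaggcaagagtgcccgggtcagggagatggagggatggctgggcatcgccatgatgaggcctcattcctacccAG
They are 121 and 87 bases long with 60.3% and 63.2% GC. VARS2 intron 24 had 9.72% to 17.64% in Y36C DMSO (median 12.66%) and 40.72% to 68.01% in Y36C E7107 samples (median 44.86%). In WT cells it had 12.08% ± 3.31 and 19.64% ± 3.48 (SD, n = 6), and neither boundary was called. VARS1 intron 15 went from 10.16% ± 2.07 to 28.07% ± 2.54 in Y36C cells (SD, n = 6).

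SARS2 intron 3, which fell in WT cells, had 14.81% to 30.89% in Y36C DMSO (median 17.53%) and 33.92% to 63.60% in Y36C E7107 samples (median 48.54%). CARS1 intron 2 went from 7.92% ± 3.45 to 26.38% ± 4.90 and CARS1 intron 21 from 11.75% ± 1.72 to 29.06% ± 2.96 (SD, n = 6). In these 3 introns every Y36C E7107 sample was above every Y36C DMSO sample. SARS2 introns 6 and 14 and VARS2 intron 25 rose by 19.99, 16.44 and 20.04 points, the last with overlapping groups.

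The difference between the lines was tested as the interaction of genotype and treatment over all 24 samples. The change with E7107 in gene retention was called less positive in Y36C cells in 22 of the 35 genes and more positive in 6, beside 60.7% and 16.0% of all genes. The 6 were SARS2 (1.36), CARS1 (0.96), CARS2 (0.77), RARS2 (0.38), QARS1 (0.18) and FARSB (0.15, limma adjusted p = 0.0148), all in log odds. At the other end were HARS2 (-2.71), YARS2 (-2.16) and TARS1 (-2.04), followed by SARS1 and VARS2 (both -1.06). Among introns the largest differences were 43.15 points at SARS2 intron 3, 29.10 and 28.71 at CARS1 introns 2 and 21, 27.37 at VARS2 intron 24 and 23.62 at SARS2 intron 6, and -51.13 at HARS2 intron 8. In the direct comparison of the E7107 samples of both lines, 23 genes were lower and 6 higher in Y36C cells, beside 63.7% and 17.2% of all genes. Of 816 boundaries 409 were lower and 143 higher (background 62.9% and 11.7%), and of 569 reference junctions 243 were higher and 122 lower (background 44.9% and 15.8%). In the interaction 339 of 842 boundaries were lower and 119 higher (background 54.9% and 8.94%), and 196 of 569 reference junctions were higher and 105 lower (background 40.2% and 12.7%). These comparisons share samples and are not independent of each other.

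**Figure D3:**
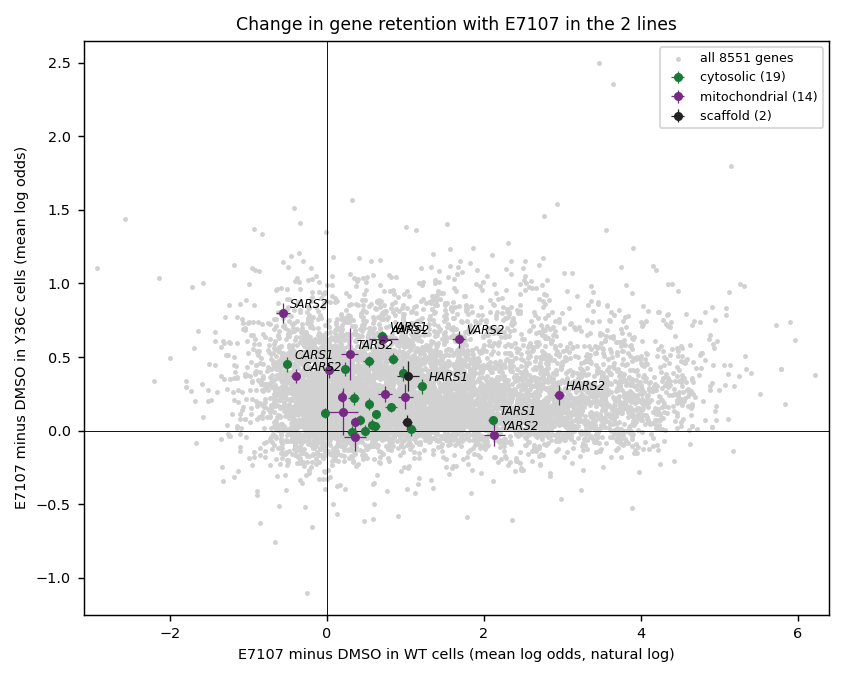
Change in gene retention with E7107 in WT cells (x axis) and in Y36C cells (y axis), in mean natural-log odds, for 8551 genes in grey and the 35 members in colour with SE bars. HARS2, YARS2 and TARS1 lie far right near the zero line of the y axis, and SARS2, CARS1 and CARS2 lie left of the zero line of the x axis and above that of the y axis.

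Exon skipping rose with E7107 in Y36C cells, while in WT cells some junctions rose and others fell. Junctions that skip at least 1 exon of the reference transcript were tested at both ends, and the result with the lower p stands for the junction. The percentages printed for named junctions are group means or sample values at the 3′ splice site, while calls and the order by size of rise use the end and comparison with the lower p, which can be the other splice site. In Y36C cells 41 of 82 such junctions rose (background 54.6%) and 1 fell (1.22%, background 1.71%), in 24 of the 35 genes. In WT cells 19 of 60 rose (31.7%, background 34.6%) and 8 fell (13.3%, background 15.6%), in 10 genes for the rises, of which HARS2 alone is mitochondrial. Of the 17 mitochondrial junctions tested in WT cells 1 rose and 3 fell, with a median change of -0.41 in log odds, and of the 42 cytosolic ones 18 rose and 5 fell, with a median of 0.31. Of the rises, 11 in Y36C and 0 in WT cells reached 10 percentage points. The interaction was positive at 38 and negative at 11 of 96 junctions (39.6% and 11.5%, background 38.2% and 16.7%). Over junctions across any annotated exon, a wider set, 28 rose and 54 fell of 165 in WT cells (background 18.6% and 32.7%), and 45 rose and 27 fell of 186 in Y36C cells (background 24.7% and 12.7%). Between the lines under E7107, skipping of reference exons was higher in Y36C at 49 and lower at 14 of 93 junctions (background 47.8% and 19.8%), and over any annotated exon at 89 and 37 of 197 (background 43.9% and 17.7%). The interaction over any annotated exon was positive at 69 and negative at 30 of 206 (background 35% and 14.0%). Of the 41 junctions that rose in Y36C cells, 19 keep the reading frame and 22 shift it. The share that keeps the frame over all skipping junctions was not calculated, so this split is a description.

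The exons behind 3 of the largest rises are shown in capitals, with 30 bases of the intron before and 10 of the intron after, from GRCh37 on the strand of the gene.
HARS2 exon 7: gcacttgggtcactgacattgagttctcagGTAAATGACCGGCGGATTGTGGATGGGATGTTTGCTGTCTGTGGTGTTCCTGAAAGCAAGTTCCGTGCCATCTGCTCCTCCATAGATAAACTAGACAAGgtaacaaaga
LARS1 exon 13: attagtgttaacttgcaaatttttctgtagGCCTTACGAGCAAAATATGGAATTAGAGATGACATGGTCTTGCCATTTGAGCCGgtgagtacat
AARS2 exon 8: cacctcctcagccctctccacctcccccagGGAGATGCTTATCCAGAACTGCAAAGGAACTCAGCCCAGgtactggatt
These windows are chr5:140075658-140075796, chr5:145532727-145532820 and chr6:44274221-44274299, the last 2 on the minus strand. The exons are 99, 54 and 39 bases long, so skipping each of them keeps the frame.

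HARS2, whose introns stayed mostly spliced in Y36C cells, had the largest rise in skipping there. At the 3′ splice site the junction over exon 7 took 4.63% to 9.42% of reads in Y36C DMSO (median 7.28%) and 34.78% to 48.57% in Y36C E7107 samples (median 43.78%). In WT cells it took 4.10% to 10.40% with DMSO (median 6.34%) and 2.33% to 11.69% with E7107 (median 7.03%). The Y36C groups lay apart and the WT groups overlapped. The change was 2.11 ± 0.143 in Y36C cells (SE, limma adjusted p = 3.12e-06) and was not called in WT cells (adjusted p = 0.853), and the interaction was 2.24 ± 0.325 (SE, limma adjusted p = 4.22e-06). The introns on either side, 6 and 7, had 55.18% and 59.52% retention in WT E7107 and 25.13% and 22.49% in Y36C E7107 samples. All junctions at a splice site share its 100%, and whether retention limited skipping in WT cells was not tested.

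LARS1, which charges leucine tRNA in the cytosol, skipped exon 13 in 0.00% to 1.95% of reads in Y36C DMSO (median 0.72%) and 20.17% to 24.24% in Y36C E7107 samples (median 22.59%). With a Y36C DMSO sample at 0, the junction could be tested at that splice site in Y36C cells only through the E7107 group. A call there adds no support beyond these values. In WT E7107 samples skipping of exon 13 was 2.03% to 7.18%, and the WT change was not called (limma adjusted p = 0.19). LARS1 was among the genes with the smallest change in gene retention in Y36C cells. QARS1, the glutaminyl-tRNA synthetase, skipped exon 9 in 6.09% ± 2.95 and then 20.94% ± 1.65 of reads in Y36C cells, and in 6.97% ± 1.67 and then 2.05% ± 0.84 in WT cells (SD, n = 6). Both changes passed the test, upward in Y36C (limma adjusted p = 0.000603) and downward in WT cells (limma adjusted p = 0.000201).

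The other large rises in Y36C cells were in mitochondrial enzymes. Skipping of WARS2 exon 4 took 0.00% to 12.12% of reads in DMSO (median 2.98%) and 24.39% to 38.89% in E7107 samples (median 30.15%). It was listed at 0 in all 6 WT E7107 samples. With a Y36C DMSO sample at 0, this junction could be tested at that splice site in Y36C cells only through the E7107 group. A call there adds no support beyond these values, and the same holds for any junction below with a DMSO sample at 0. AARS2 exon 8 went from 2.72% ± 3.25 to 18.71% ± 6.16, VARS2 exon 13 from 3.00% ± 2.14 to 18.34% ± 1.85, NARS2 exons 7 to 9 from 4.11% ± 2.57 to 17.09% ± 4.67 and NARS2 exon 9 from 3.60% ± 0.65 to 13.39% ± 3.29 (SD, n = 6). At the 5′ splice site, where the NARS2 junctions were called, the rises were 15.13 and 12.87 points. In each of these the 6 E7107 samples lay above the 6 DMSO samples. The 1 junction that fell in Y36C cells skips exon 2 of CARS1, which most of its RNA lacks: it went from 67.65% to 77.05% (median 71.95%) to 56.47% to 61.96% (median 59.23%) with a change of -0.57 ± 0.122 (SE, limma adjusted p = 0.00496), while intron 2, just downstream of that exon, gained retention as given above.

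In WT cells the rises in skipping were small, and TARS1 led them. Skipping of TARS1 exon 8 was listed at 0 in all 12 DMSO samples and took 2.61% to 7.07% of reads in WT E7107 samples (median 4.85%). The change was 1.76 ± 0.139 in log odds (SE). This junction was tested only because all 6 WT E7107 samples were above 0, so its call adds no support beyond these values. EPRS1 exon 7, with overlapping groups, went from 0.36% ± 0.70 to 3.76% ± 1.78 and HARS1 exon 6 from 0.52% ± 0.20 to 2.61% ± 1.34 (SD, n = 6). NARS1 exons 9 to 10, TARS1 exon 6, IARS1 exon 30 and MARS1 exons 2 to 5 rose by 1.69 to 2.84 points at the end tested. A junction from exon 1 to exon 11 of HARS2 was listed at 0 in the 18 samples of the other groups and took 1.18% to 3.51% of reads in WT E7107 samples. It too was tested in WT cells only through that group.

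**Figure D4:**
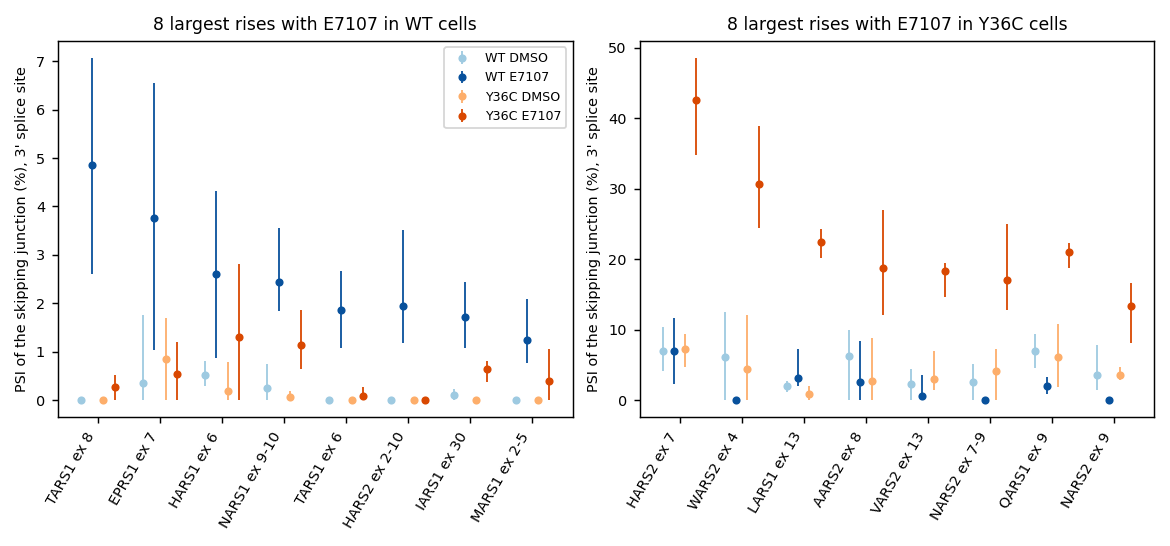
PSI (%) at the 3′ splice site of the 8 skipping junctions with the largest rise in WT cells (left) and in Y36C cells (right), as the mean of 6 samples with a line from the lowest to the highest sample, in the 4 groups. The left axis ends near 7% and the right near 50%, and in the right panel the Y36C E7107 values stand above the 3 other groups at every junction.

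Introns rich in G and C made up most of the rises in Y36C cells. Both boundaries rose at 1 of 194 member introns with under 40% GC (0.515%), 9 of 201 with 40 to 50% (4.48%), 21 of 118 with 50 to 60% (17.8%) and 21 of 53 with 60% or more (39.6%). Over all introns the same shares were 2.12%, 3.59%, 9.41% and 20.2%. In WT cells the member shares were 26.8%, 39.8%, 33.1% and 32.1%, and those over all introns 26.9%, 29.5%, 34.4% and 39.8%. The member introns of 60% GC or more were also the shortest, with a median of 114 bases against 1454 below 40%. The shares are over all measured introns, and a boundary that was not tested counts as not higher. They therefore mix the response with passing the filter. The median change in Y36C cells, which does not use the filter, was 0.09, 0.27, 1.61 and 3.22 points over member introns. Over all introns it was 0.22, 0.34, 0.96 and 2.16 points. Introns of 1 gene share its expression and its libraries, so these shares and medians are descriptions.

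**Figure D5:**
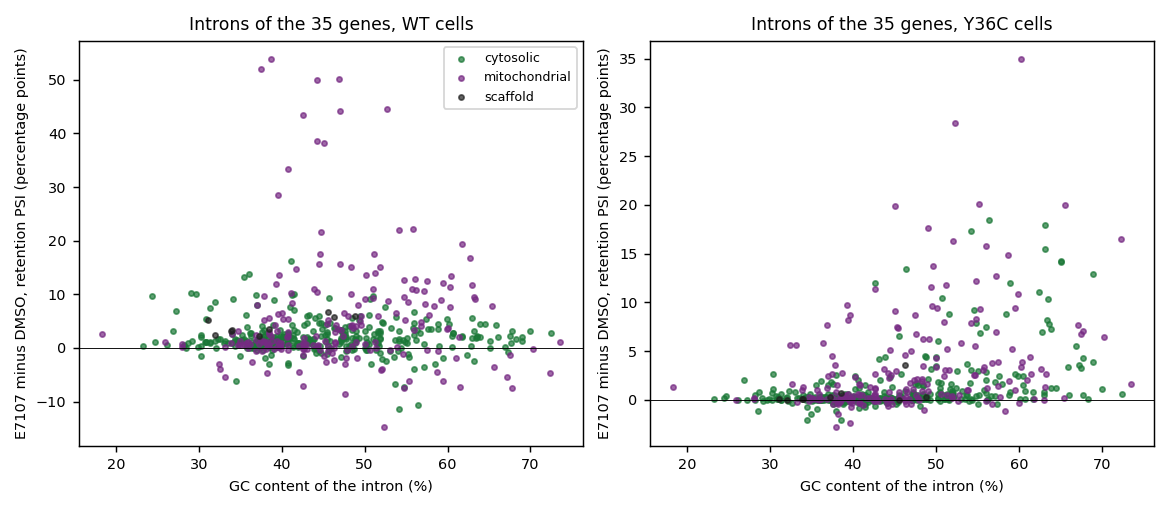
Change in retention PSI with E7107 (percentage points) of each member intron against its GC content (%), in WT cells (left) and Y36C cells (right), coloured by the compartment of the enzyme. In the right panel the changes of 10 points or more lie above 40% GC, and in the left panel the points above 20 lie between 35 and 60% GC.

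Within pairs of enzymes for 1 amino acid, neither compartment held the larger change throughout. In WT cells the mitochondrial member of a pair had the larger change in 5 of 12 pairs, among them HARS2 over HARS1 by 1.74 and YARS2 over YARS1 by 1.59 in log odds. TARS2 was below TARS1 by 1.82 and SARS2 below SARS1 by 1.63, so that SARS1 (1.00% to 5.03%) and SARS2 (6.01% to 3.13%) moved in opposite directions. In Y36C cells the mitochondrial member had the larger change in 6 of 12 pairs, with SARS2 over SARS1 by 0.79 and TARS2 over TARS1 by 0.45. All 9 members of the multisynthetase complex (EPRS1, IARS1, KARS1, LARS1, MARS1, QARS1, RARS1, AIMP1 and AIMP2) rose in WT cells, with a median change of 0.53 and a range from 0.23 to 1.03. Of the 12 cytosolic enzymes outside it 10 rose, with a median of 0.65 and a range from -0.51 to 2.11. In Y36C cells 5 of the 9 and 8 of the 12 rose. Phenylalanyl-tRNA synthetase is built of unlike subunits, and FARSA went from 1.05% to 4.07% in WT cells while FARSB stood at 0.59% and 0.49%. In Y36C cells both rose, FARSA to 2.74% and FARSB to 0.94%.

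Other genes of tRNA charging, 16 listed and 13 measured, gave 7 genes higher and 2 lower in WT cells (median 0.25) and 9 higher and 0 lower in Y36C cells (median 0.22). TRNT1, which adds the CCA end to tRNAs, rose by 2.36 in log odds in WT cells (limma adjusted p = 1.71e-10) and had a change of 0.01 in Y36C cells (adjusted p = 0.938). GATC, a subunit of the mitochondrial amidotransferase that makes glutaminyl-tRNA, rose in both lines, by 1.56 and 1.12.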

How the data were processed

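Per the labels, poly(A) RNA of 24 HCT116 samples was sequenced, and the submitters' processing notes name STAR and hg19. The authors deposited percent spliced in for each junction and sample, in percent, calculated from junction counts relative to all junctions at a splice site, with boundary reads included. At each site the values totalled 100, or 0 where no read fell, which counted as missing. Left out were 6433 rows from mitochondrial DNA or lacking a strand. Library strandedness was not given in the sources used here.

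Groups came from the sample titles. Introns and exons were those of GENCODE canonical transcripts on GRCh37. limma 3.58.1 in R 4.3.3 was fitted on ln((PSI + 1)/(100 − PSI + 1)), with Benjamini-Hochberg adjustment over all rows or genes and calls at 0.05 or less. A row was tested where every sample compared had reads at its site and some group had a PSI above 0 in each of its 6 samples. In the WT and Y36C comparisons a row at 0 in some DMSO sample could thus enter only through the E7107 group. This favours calls of rises with E7107. An intron with an untested boundary counted as not changed at both. Gene retention needed at least 3 introns with reads in all 24 samples (8551 genes). WT, Y36C and DMSO comparisons used 12 samples and the interaction 24. The fits were tested on simulated data.

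The members, the gene lists, the offset and the filter were chosen with earlier results of these data known, the offset and filter after an earlier comparison with lists from the study. All 35 genes were accounted for. Named were the 5 genes with the largest and smallest change per line, the 8 introns and 8 skipping junctions with the largest rise among those called, the 5 largest falls of 5 points or more (introns with both boundaries called, and single boundaries of reference introns), and the 5 largest interactions each way. Any other gene, intron or junction was named after its values were seen. Alternatives were PSI in percent, an offset of 0.1, no filter, a minimum change of 10 points, a replicate block, 1 fit of all samples, and other ways of summing introns. Skipping of reference exons and introns used in DMSO (junction at 50% or more) were added after seeing the data. 1 gene of the tRNA-charging list is not reported here by name.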

Additional observations from a re-analysis of the deposited data

Results flagged for a closer look

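Single samples stood apart from the rest of their group of 6 in 13 of 140 combinations of gene and group, judged by the gap to the nearest sample as a share of the range. Chance alone gives about 1 in 20. In WT DMSO the highest sample stood apart for CARS1 (4.63%), KARS1 (0.81%) and LARS2 (0.91%), and in Y36C DMSO for YARS1 (1.01%), FARS2 (1.77%), VARS2 (4.78%) and AIMP1 (1.57%). The lowest stood apart for SARS1 in Y36C DMSO (0.86%), FARSA (2.38%) and TARS2 (9.32%) in Y36C E7107, and HARS1 (6.80%) and HARS2 (41.77%) in WT E7107. AARS2 in WT E7107 had 1 sample at 21.23%, where the next was at 12.22%.

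The effect of E7107 on gene retention differed between the lines by the interaction test in 28 genes. In log odds, Y36C minus WT, the values not given above were -0.58 for AARS1 and NARS1, -0.51 for EPRS1, -0.34 for FARSA, -0.54 for GARS1, -0.91 for HARS1, -0.66 for IARS1, -0.35 for KARS1, -0.33 for LARS1, -0.48 for RARS1, -0.36 for YARS1, -0.76 for EARS2, -0.39 for FARS2, -0.30 for IARS2, -0.49 for NARS2, -0.97 for AIMP1 and -0.65 for AIMP2. The larger ones were -2.71 for HARS2, -2.16 for YARS2, -2.04 for TARS1, -1.06 for SARS1 and VARS2, 1.36 for SARS2, 0.96 for CARS1, 0.77 for CARS2, 0.38 for RARS2, 0.18 for QARS1 and 0.15 for FARSB.

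Among introns the same difference, in percentage points, was -51.13, -49.33, -48.45, -47.81, -44.64, -39.18, -32.04 and -39.26 at HARS2 introns 8, 2, 3, 1, 9, 4, 7 and 5. It was 43.15, 14.53, 23.62 and 21.19 at SARS2 introns 3, 11, 6 and 14, 28.71 and 29.10 at CARS1 introns 21 and 2, 27.37 at VARS2 intron 24 and 20.35 at VARS1 intron 15.

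For skipping the difference was 35.33 points at HARS2 exon 7, 32.44 at WARS2 exon 4, 20.23 at LARS1 exon 13, 19.70 at AARS2 exon 8, 17.03 at VARS2 exon 13, 17.60 at NARS2 exons 7 to 9, 16.39 at NARS2 exon 9 and 19.78 at QARS1 exon 9. It was -4.44 and -2.14 at TARS1 exons 8 and 6, -3.01 at EPRS1 exon 7, -1.95 at HARS2 exons 2 to 10, -0.97 at IARS1 exon 30 and -1.18 at MARS1 exons 2 to 5.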

How the results depend on the processing

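Of 290 comparisons of a count or class median with an alternative, 241 kept the value within its tolerance and 49 moved. The cause of these moves was not tested. With a minimum change of 10 points, member boundaries gave 99 higher and 9 lower in WT, 61 and 2 in Y36C, 67 and 84 between the lines under E7107, and 57 and 72 in the interaction. Skipping of any annotated exon then gave 4 and 10, 12 and 13, 21 and 13, and 20 and 12, and skipping of reference exons 0 and 0, 11 and 1, 14 and 1, and 13 and 1. The single junction called under DMSO became 0 with that minimum, an offset of 0.1, no filter, a replicate block and 1 fit of all samples. With PSI in percent, reference-exon skipping gave 12 higher in WT, 1 higher under DMSO and 7 lower under E7107, and boundaries 5 lower in Y36C, which 1 fit of all samples made 3. With no filter 21 skipping junctions were lower in the interaction. The median over boundaries gave 15 genes higher in Y36C in place of 23, and 5′ boundaries alone 3 genes higher in the interaction in place of 6.

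The median change of cytosolic enzymes was 1.1 in WT and 0.37 in Y36C with an offset of 0.1, 0.69 and 0.08 with the median over boundaries, and 1.58 and 0.40 points with PSI in percent. For mitochondrial enzymes it was 0.77 and 0.53, 0.54 and 0.32, and 2.71 and 1.80 points, and 0.69 in WT with 5′ boundaries alone. For single genes, introns and junctions 1727 comparisons kept their call, 70 lost it, 9 gained it and 6 turned direction. Those that turned were under E7107 FARSB (-0.07, median over boundaries), QARS1 (-0.02, offset 0.1), MARS1 (1.38 points) and VARS1 (2.85 points), and in the interaction MARS1 (1.27 points) and VARS1 (2.54 points), the points from PSI in percent.

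Correlations between same-numbered samples of different groups ran from -0.00548 to 0.00586. Between WT E7107 and Y36C DMSO, 4 samples correlated best with their own number (mean 0.00227, other numbers -0.000454). In the other pairs of groups 0 to 2 samples did. Same and other numbers both gave values near 0, so these correlations cannot decide whether the numbers pair samples. With the replicate number as a block, 29 genes were higher and 3 lower in WT and 23 and 0 in Y36C, boundaries gave 466 and 49, and 137 and 9, and reference-exon skipping 19 and 7, and 33 and 1. Reads per value are unknown, so introns with few reads cannot be told from well covered ones.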
